A study of Mus musculus with 4 samples.

Results

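The genes described here are 8 transcription factors of the gonadal primordium: Wt1, Gata4, Nr5a1, Lhx9, Emx2, Nr0b1, Tcf21 and Nr2f2. They were chosen by name, as 8 of the 18327 genes with a named probe on the array, and every probe of each was read on each of the 4 arrays. Together they have 11 of the 41174 probes. RNA came from mVenus-positive cells sorted by flow cytometry from mouse genital ridges at embryonic day 11.5, and the labels call these cells primordial germ cells, the precursors of eggs and sperm. All embryos carried the Blimp1-mVenus transgene, in which a fluorescent protein reports Blimp1 (Prdm1). One group was wild-type for HP1γ and the other was HP1 gamma -/-, a null produced by a modified gene trap and bred from heterozygous parents. HP1γ is a chromatin protein encoded by Cbx3 that binds methylated histone H3. Each array held a pool from 5 or 6 embryos of 1 genotype, at about 500 to 3500 sorted cells per embryo, and there were 2 pools per genotype.

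The gonad begins as a thickening of the coelomic epithelium over the mesonephros. Wt1, Gata4, Emx2 and Lhx9 act in that epithelium, and loss of any of them halts or impairs gonad formation in mice. Nr5a1, also called SF-1, is a nuclear receptor that switches on steroidogenic and anti-Müllerian hormone genes, and Nr0b1 (DAX1) binds it and represses its activity. Tcf21 and Nr2f2 mark the mesenchyme around and within the early gonad. They are listed here for their part in the somatic gonad, and their expression in germ cells was not tested. Wt1 encodes a zinc finger protein, Gata4 a GATA factor, Lhx9 and Emx2 homeodomain proteins, Tcf21 a basic helix-loop-helix protein, and Nr2f2 (COUP-TFII) an orphan nuclear receptor that also specifies venous endothelium.

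The RefSeq promoter table, build GRCm38.p6, matched 5 of the 8 genes, namely Lhx9, Emx2, Nr0b1, Tcf21 and Nr2f2. Shown are the 250 bases before the start of Nr0b1, the only member whose arrays did not overlap between genotypes, of Tcf21, which spread most over the arrays, and of Emx2, which was measured in only 1 pool. They lie on the gene's own strand at chrX:86191525-86191774 (plus), chr10:22820144-22820393 (minus) and chr19:59458440-59458689 (plus). Capitals mark matches, on either strand, to any of 5 motifs searched. One was AGGTCA, a unit of the sites that many nuclear receptors bind. Another was AGATAA, the core that factors such as Gata4 recognise. TATAAA is the box of many tissue-restricted promoters. TAATTA is a core recognised by homeodomain proteins. CCAAT is a common promoter element.
Nr0b1: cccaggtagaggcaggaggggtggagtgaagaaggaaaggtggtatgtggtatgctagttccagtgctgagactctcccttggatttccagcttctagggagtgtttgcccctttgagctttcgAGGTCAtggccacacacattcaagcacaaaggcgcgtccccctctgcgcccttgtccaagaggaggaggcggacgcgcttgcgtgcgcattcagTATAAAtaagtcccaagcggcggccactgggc
Tcf21: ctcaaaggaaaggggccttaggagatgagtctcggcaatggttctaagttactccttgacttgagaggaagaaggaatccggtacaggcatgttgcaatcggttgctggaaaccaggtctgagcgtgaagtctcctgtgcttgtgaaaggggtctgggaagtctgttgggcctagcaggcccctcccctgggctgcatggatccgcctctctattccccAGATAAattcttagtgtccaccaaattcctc
Emx2: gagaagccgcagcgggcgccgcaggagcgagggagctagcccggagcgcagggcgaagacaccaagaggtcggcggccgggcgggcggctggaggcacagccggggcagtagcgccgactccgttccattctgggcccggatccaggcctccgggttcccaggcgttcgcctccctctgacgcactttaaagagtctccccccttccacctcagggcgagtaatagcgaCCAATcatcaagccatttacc
In the window of Nr0b1, AGGTCA began at position -126 and TATAAA at position -32, counted from the gene's start. Of all 32851 promoter windows of this length, 14.0% held AGGTCA and 12.4% held TATAAA. The Tcf21 window held AGATAA at position -31, and 9.99% of all windows held it at some position. The Emx2 window held CCAAT at position -21, a motif present in 33.8% of windows, and no other motif searched. CCAAT matches also lay in the windows of Lhx9 (1) and Nr2f2 (2), while TAATTA, found in 4.84% of windows, was in none of the 5. The Emx2 window was 67.2% G and C with 24 CG dinucleotides, against medians of 52.4% and 6 over all windows. The matches are descriptions of letters and not binding sites, and the motifs were chosen with these windows in view.

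Levels are log2 signals minus the array's own 75th percentile, so 0 is the 75th percentile, and signals are in the scanner's processed intensity units. A reading counted as measured where the scanner software marked the spot well above background. Levels of different probes are not comparable with each other, so each gene is set against itself on other arrays. In the sorted pools, fewer cells of a type and less RNA per cell cannot be told apart. The 75th percentile of the signal was 125 to 291 units, and 53.3% to 63.3% of spots were well above background, null replicate 2 being highest in both. Cbx3, the targeted gene, was lower in both null pools by both of its probes, with log2 differences of -7.82 and -6.70 (limma adjusted p = 0.099 and 0.044). Prdm1, the gene of the reporter, had wild-type levels of 1.24 and 1.27 and null levels of 1.48 and 0.65. Of 11 germ cell markers with a named probe, 10 were measured in wild-type replicate 1, 10 in wild-type replicate 2, 11 in null replicate 1 and 3 in null replicate 2. In null replicate 2, Ddx4, Dppa3, Pou5f1 and Dazl could not be told from background, so the label of that pool as germ cells was not borne out by these defining markers. Nanog had no named probe here. Differences of the tested factors are therefore given with and without null replicate 2.

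All 8 factors were measured in null replicate 2 and only 3 of them, Wt1, Nr0b1 and Nr2f2, in null replicate 1. In wild-type replicates 1 and 2 the numbers were 5 and 4. Over all 41153 probes with a value, 62.8% were measured in null replicate 2, 53.4% in null replicate 1, 52.9% in wild-type replicate 1 and 56.4% in wild-type replicate 2. For 6 of the 8 factors the highest measured reading was that of null replicate 2. That held for 32.3% of all probes measured on at least 1 array. The exceptions were Nr5a1, highest in wild-type replicate 2 like 23.8% of such probes, and Nr0b1, highest in null replicate 1 like 27.7% of them. Gata4 and Emx2 were measured in null replicate 2 and nowhere else, as were 5.62% of all probes. By level, the brighter Gata4 probe was no higher there (-3.55) than in wild-type replicate 1 (-3.52), where it was unmeasured. The lowest level measured for any probe was -4.87 in null replicate 2 and -3.56 to -4.11 on the other arrays.

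**Figure D1:**
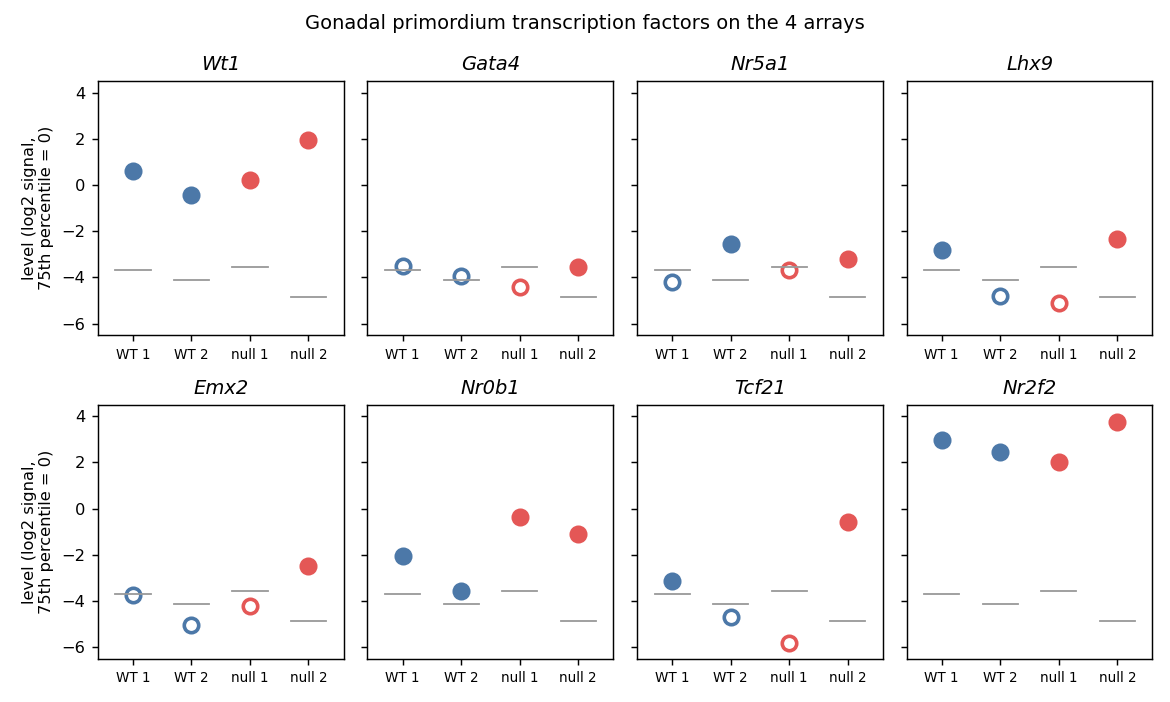
Level of each factor on each array (y axis, log2 signal with the 75th percentile at 0), for wild-type (WT, blue) and HP1γ-null (red) replicates, by the probe with the highest mean. Filled points are well above background, open points are not, and grey bars give the lowest level of any probe well above background on that array. All 8 points of null replicate 2 are filled, against 3 in null replicate 1.

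Among the factors of the coelomic epithelium, Wt1 was measured on all arrays. Its signal was 288 units in the first wild-type pool and 161 in the second, then 146 and 1129 units in the first and second null pool. As levels these were 0.62, -0.44, 0.23 and 1.96, so null replicate 1 lay between the wild-type pools and null replicate 2 above both. The Wt1 probe A_52_P673458 was printed in 10 spots on every array, and all 10 were well above background on each. The SD over the spots used was 0.04 to 0.07 on the log2 scale, whereas the wild-type pools differed by 1.06 and the null pools by 1.73. Differences between pools of 1 genotype were thus many times the spread of repeated spots on an array. A gap between the null pools at least as large as that of Wt1, in either direction, was found in 3.74% of the 22440 probes tested. The null mean of Wt1 exceeded the wild-type mean by 1.00 with SE 0.71, or 2.00-fold (1.09 ± 1.22 against 0.09 ± 0.75, SD, n = 2 each), and did not pass the threshold (limma adjusted p = 0.84). The 95% interval of that difference ran from -0.89 to 2.90, and the difference was 0.14 with null replicate 2 left out and 1.87 with null replicate 1 left out.

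Gata4 had a pair of probes. The probe printed 10 times, A_52_P4201, was well above background in all 10 spots in null replicate 2 and in 0 of 10 on each of the other arrays. Its mean signal was 23.8 units in null replicate 2, against 3.49 and 2.73 in wild type and 2.29 in null replicate 1. The SD over spots in null replicate 2 was 0.23 on the log2 scale. Gata4 RNA was therefore detected in 1 of the 4 pools, and dimly. The other probe, A_51_P492355, was likewise well above background in null replicate 2 alone, at 24.8 units, but read 16.3, 14.1 and 5.75 units on the other arrays in the same order. Signals of these sizes lie near the lowest that any probe well above background had, which was 9.94 to 14.6 units depending on the array. As levels, A_51_P492355 had -3.52 and -3.96 in wild type and -4.44 and -3.55 in the null pools. Once scaled it was thus no higher in null replicate 2 than in wild-type replicate 1. Gata4 was not tested, since the test took probes measured on both arrays of at least 1 genotype. The raw means of its probes differed in sign, by -0.25 for A_51_P492355 and 1.35 for A_52_P4201, but they rest mostly on readings not above background, and the rule for bounds gave no fold for either.

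**Figure D2:**
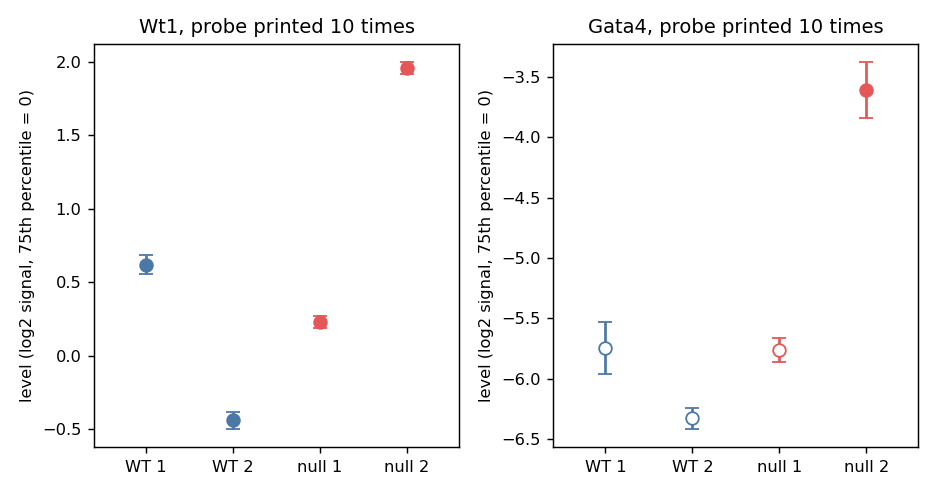
Mean level (y axis, log2 signal with the 75th percentile at 0) of the Wt1 and Gata4 probes that were printed in 10 spots on each array, with bars of 1 SD over the spots used. Wild-type (WT) arrays are blue, null arrays red, and open points are not well above background. The bars are small beside the gaps between arrays for Wt1, and Gata4 is filled for null replicate 2 alone.

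Emx2, a homeobox gene of the urogenital epithelia, was also measured in null replicate 2 alone, by both of its probes. By A_52_P455251 the signal was 52.7 units there, against 14.2 and 6.70 in wild type and 6.67 in null replicate 1. By A_52_P462837 it was 47.0 units, against 12.4, 7.45 and 5.44. The probes gave the same order of pools, and by the rule for bounds the null mean was 1.47-fold and 1.25-fold higher. That rule sets the null mean against the higher of the probe's own level and the lowest level measured on each wild-type array. Here the null mean takes in the unmeasured reading of null replicate 1 as it stands, so these folds are not strict lower bounds. They rest on null replicate 2, since without that pool neither genotype was measured.

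Lhx9, the LIM homeobox gene needed for proliferation of the epithelium, was measured in wild-type replicate 1 and null replicate 2 by probe A_51_P330481. Its wild-type signals were 26.5 and 7.78 units and its null signals 3.61 and 56.6 units. In levels, null replicate 2 at -2.36 and wild-type replicate 1 at -2.82 lay close together, 1.38-fold apart. Null replicate 2 was at least 2.29-fold above null replicate 1, where the gene was unmeasured, so each genotype held 1 pool with and 1 without a measured reading. The second probe, A_52_P643919, made for another transcript accession, gave no measured reading.

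The nuclear receptor genes did not follow the same order. Nr5a1 gave 10.3 and 36.7 units for the wild-type pools and 9.67 and 31.5 units for the null ones. It was measured in wild-type replicate 2 and null replicate 2, at levels of -2.58 and -3.20. Each genotype again had 1 pool with a measured reading, but in wild type it was the other pool than for Lhx9.

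Nr0b1 was the member that separated the genotypes. The wild-type signals were 46.0 and 18.3 units and the null signals 98.0 and 137 units, all well above background. The 18.3 units of wild-type replicate 2 lay near the lowest signal measured on that array, 12.7 units. As levels, wild type had -2.03 and -3.58 and the null pools -0.35 and -1.09. Both null pools thus lay above both wild-type pools, and among the null pools replicate 1 was the higher once scaled. Null replicate 2 minus null replicate 1 was -0.74, a gap matched or passed in size by 25.3% of tested probes. The means were -2.81 ± 1.10 and -0.72 ± 0.52 (SD, n = 2 each), so the null mean was 2.09 log2 units higher (SE 0.61), which is 4.26-fold. This missed the threshold over all probes (limma adjusted p = 0.58), with an unadjusted p of 0.023 and a 95% interval, not adjusted for the number of probes, of 0.46 to 3.72. An unadjusted p under 0.05 in the same direction was met by 4.22% of all tested probes, and non-overlap in that direction by 15.1%. Without null replicate 1 or 2 the difference was 1.72 and 2.46, and without wild-type replicate 1 or 2 it was 2.87 and 1.31. As the genotypes did not overlap, leaving out an array could not turn its sign, so these values show its size only. With normexp background correction, which draws dim signals together, the difference was 0.94. Germ cell markers were also highest in null replicate 1, for 9 of the 10 tested. In null replicate 2, where 8 of 11 such markers were not well above background, Nr0b1 was 1.92-fold above the higher wild-type pool. The part of germ cells or of other cell types in the Nr0b1 values was not tested.

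Of the mesenchymal factors, Tcf21 spread most. Its signal was 21.5 and 8.39 units in wild type, 2.23 units in null replicate 1 and 195 units in null replicate 2. It was measured in wild-type replicate 1 and null replicate 2, at levels of -3.12 and -0.57. Null replicate 2 was 5.86-fold above wild-type replicate 1 and at least 7.91-fold above null replicate 1. Over all tested probes, 6.65% were at least 2-fold higher in null replicate 2 than in null replicate 1. Wild-type replicate 1 was at least 1.35-fold above null replicate 1. Because Tcf21 was unmeasured on 1 array of each genotype, it was not tested.

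Nr2f2 was far above background in every pool. The wild-type signals were 1451 and 1188 units and the null signals 500 and 3937 units, or levels of 2.95, 2.44, 2.01 and 3.76. The null pools lay on either side of the wild-type pools, replicate 1 below both and replicate 2 above both, and differed from each other by 3.37-fold. Of all tested probes, 13.5% had null replicate 2 highest and null replicate 1 lowest. A gap at least that wide, in either direction, was found in 3.63% of tested probes. The genotype means differed by 0.19 with SE 0.64 (2.88 ± 1.24 against 2.70 ± 0.36, SD, n = 2 each; limma adjusted p = 0.98), with a 95% interval of -1.53 to 1.90. The sign turned to -0.69 without null replicate 2, to -0.07 without wild-type replicate 2 and to -0.36 with scaling to spiked-in RNA, and the difference was 1.06 without null replicate 1.

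**Figure D3:**
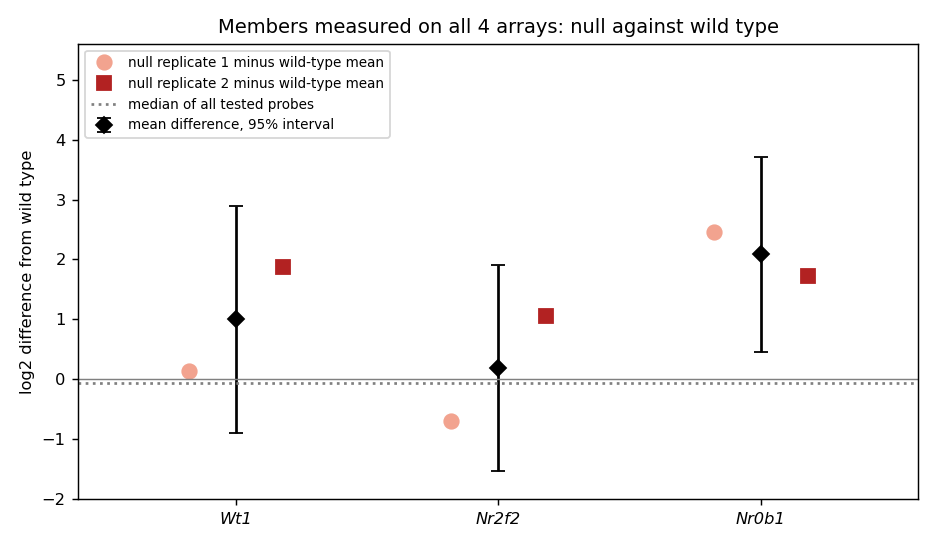
Log2 difference from the wild-type mean (y axis) for the 3 factors measured on all arrays: null replicate 1 (circles), null replicate 2 (squares) and the mean of both (diamonds) with its 95% interval from the limma fit, not adjusted for the number of probes. The dotted line is the median of all tested probes, -0.06. Both null pools lie well above 0 for Nr0b1 alone.

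In all, 3 of the 8 factors could be tested, and each had the higher mean in the null group. Their median difference was 1.00. That count and median leave out the 5 factors that were too dim, so they do not describe all members. Over all 22440 tested probes 41.7% had a higher mean in the null pools, and the median was -0.06. None of the 3 passed the threshold by limma, and 1, Nr0b1, had an unadjusted p under 0.05. Of all tested probes, 0.00891% passed and 7.51% had an unadjusted p under 0.05. One of the 3 had no overlap between the genotypes, as did 38.2% of all tested probes. With all probes kept regardless of brightness, adjusted p-values of the member probes by limma lay between 0.94 and 0.99.

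The measured factors were compared with each other by the root mean square difference of their levels over the 4 arrays, each centred on its own mean. Wt1 and Nr2f2 were the most alike, at 0.45, while Nr0b1 lay 1.04 from Wt1 and 1.35 from Nr2f2. Wt1 and Nr2f2 share the lift in null replicate 2, and Nr0b1 differs from them mainly in null replicate 1. Of 11034 other named genes measured on all arrays, those most like Wt1 were Fam171b (0.04), the collagen genes Col11a1 (0.06) and Col25a1 (0.09), Vasn (0.11) and Sfrp2 (0.12), a secreted Wnt modulator. The median distance of all genes from Wt1 was 0.93. Nearest to Nr2f2 were Sardh (0.07), Prkg1 (0.09) and Shisa4 (0.10), with a median of 0.70. Among these genes measured on all arrays Nr0b1 had no neighbour as close: Shisa2 (0.22), Ank3 (0.30) and Htra1 (0.31) were nearest, with a median of 1.24. Over all 11808 other named genes tested, Rasl11a (0.07) was nearest to Nr0b1. Its wild-type levels, -4.74 and -6.35, lay under the lowest measured on those arrays. The mean of the 3 factors was nearest to Masp2 (0.04), Plxna3 (0.05), Col5a1 (0.06), Prl3b1 (0.07) and Ncs1 (0.11), with a median of 0.79. Such likeness over 4 arrays is a description.

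Other genes that build or follow the gonadal primordium were read from 3 further lists, and limma called 0 of their 29 tested genes, 6 having an unadjusted p under 0.05, where 7.51% of all tested probes had one. Of those 6, Wnt4, Hsd3b1 and Inha were unmeasured in both wild-type pools and so could be tested only because the null pools were higher. Counts by direction below are therefore over the genes measured on all 4 arrays. Of 15 other regulators of the genital ridge 11 were tested, 5 with higher and 6 with lower null means. Their median difference was -0.07, and 0.10 with null replicate 2 left out. The 3 with the smallest p were Gadd45g, a stress-response gene required for Sry expression (2.96, 2.76, 3.30 and 3.77, wild-type pools first), the insulin receptor gene Insr (-0.55, -0.73, -0.96 and -1.16) and the Polycomb gene Cbx2 (0.75, 0.81, 1.00 and 1.51). Their limma adjusted p-values were 0.67, 0.75 and 0.78. Mesenchymal factors of this list stood out in null replicate 2, as Tcf21 had. Osr1 read -3.37 in wild-type replicate 1 and -0.69 in null replicate 2, Nr2f1, the paralog of Nr2f2, -2.96 and -1.14, and neither was well above background in the other pools. Tbx18 was measured in null replicate 2 alone, at -3.42.

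Genes of sex determination and supporting cells were mostly dim. Of 17 in the list 9 were tested and 7 measured on all arrays, 2 with higher and 5 with lower null means and a median of -0.50, which was -0.34 with null replicate 2 left out. Each of the 7 had no overlap between the genotypes, against 38.2% of all tested probes. Wnt4, a ligand of the early gonad, was unmeasured in both wild-type pools and read -2.67 and -1.93 in the null ones, at least 3.02-fold higher (limma adjusted p = 0.45). Kitl, the ligand that germ cells need for survival, read 1.41, 1.55, 0.84 and 0.88 (limma adjusted p = 0.61), and Rspo1, which acts with Wnt4, -0.46, -1.43, -0.08 and 1.55 (limma adjusted p = 0.685). Rspo1 thus had its highest reading in the pool where Wt1 and Nr2f2 were highest. Sry, Dmrt1 and Foxl2, which act at or after sex determination, were not well above background on any array.

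Genes known as targets of Wt1, Gata4 or Nr5a1 numbered 14, of which 13 had a named probe and 9 were tested. Hsd3b1, Inha and Vnn1 were tested through the null pools alone. Over the 6 measured on all arrays null means were higher for 2 and lower for 4, with a median of -0.11, or 0.22 with null replicate 2 left out. Amhr2 and Podxl had an unadjusted p under 0.05. Hsd3b1, a steroid dehydrogenase gene, had no measured wild-type reading and null levels of -3.06 and -2.65, at least 2.06-fold higher (limma adjusted p = 0.115). Inha, the inhibin alpha gene, was likewise unmeasured in wild type and read -2.28 and -1.26, at least 4.36-fold higher (limma adjusted p = 0.30). Amhr2, whose product binds anti-Müllerian hormone, read -0.50, -1.46, 0.82 and 1.51 over the arrays in the order above (limma adjusted p = 0.45). Both null readings of Amhr2 lay above both wild-type ones, as for 15.1% of all tested probes. Podxl, a podocyte surface protein gene, read -0.44, -0.33, -0.86 and -1.09, lower in both null pools (limma adjusted p = 0.641). Nr5a1 itself was unmeasured in null replicate 1. Cyp11a1, the enzyme that starts steroid synthesis, was measured in null replicate 2 alone, where it read -2.87. Its null mean was 1.76-fold higher by the rule for bounds. As for Emx2 this is not a strict lower bound, since null replicate 1 was unmeasured. Star and Amh, like Nr5a1, were measured in wild-type replicate 2 and null replicate 2. Those arrays had the largest shares of all probes measured, 56.4% and 62.8%. Amh read -3.80 in both wild-type pools, so its background mark differed between them while its scaled level did not. Hsd3b1, Inha and Vnn1 were instead measured in both null pools and in neither wild-type pool. A link of these targets to Nr5a1 was not tested.

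**Figure D4:**
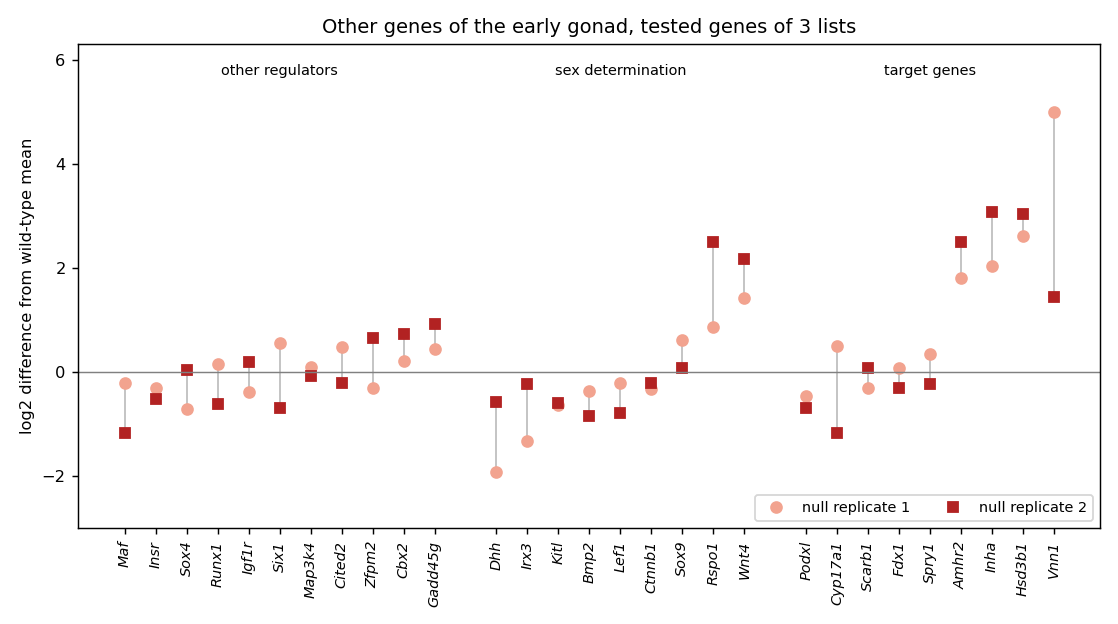
Log2 difference of null replicate 1 (circles) and null replicate 2 (squares) from the wild-type mean (y axis) for the 29 tested genes of 3 lists: other regulators of the genital ridge, sex determination and targets of the member factors. Wnt4, Inha, Hsd3b1 and Vnn1 were not well above background in wild type, so their plotted differences are not exact. Amhr2, Inha, Hsd3b1, Wnt4 and Rspo1 are among the genes above 0 in both null pools. Kitl, Podxl and Insr are among those below 0 in both.

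Marker lists of cell types were summed on each array, and of them the stromal and erythroid lists had the same highest pool as most members. For the erythroid list the margin was small, and 2 of its 4 tested genes were highest in that pool. Summed signals below are scaled so that 1 is the array's 75th percentile, and each series of 4 gives the wild-type pools first. For the 8 members the sums were 9.99, 6.59, 6.20 and 19.1, of which Nr2f2 is the larger part. All 11 stromal genes were measured in every pool, with sums of 26.9, 11.5, 13.1 and 94.2, and 10 of them were highest in null replicate 2. Pdgfra read -0.69, -1.57, -1.81 and 2.23, and Col1a1 2.28, 0.98, 0.53 and 4.13. Stromal markers thus had the same highest pool as Wt1, Tcf21 and Nr2f2. Coelomic epithelial markers did not: their sums were 4.32, 2.50, 38.8 and 11.4, highest in null replicate 1. The keratin gene Krt18 was the larger part of that sum in each null pool. Among the 5 epithelial markers measured on all arrays, 3 keratin genes lay above wild type in both null pools. So did Nr0b1 and 15.1% of all tested probes, while Aldh1a2 and Cdh1 overlapped. Gpm6a was lower in both null pools and unmeasured in null replicate 1, and Msln, Krt19 and Lrrn4 were tested through the null pools alone. Krt19 was unmeasured in both wild-type pools and read 1.46 and -2.17 in the null ones, and Upk3b was measured in null replicate 2 alone, at -3.09. Germ cell sums were 8.42, 3.09, 31.5 and 0.89. Mesonephric sums were 0.97, 0.69, 1.41 and 0.75, and Pax2 and Pax8 were not well above background anywhere. Sums of the 14 endothelial genes were 388, 430, 223 and 288, lowest in null replicate 1 as was Nr2f2. Leukocyte sums were 313, 361, 321 and 257, and erythroid sums 3.22, 3.75, 2.64 and 4.08. The part of these cell types in the members' values was not tested.

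No gene of these cell type lists passed the threshold by limma. The 3 with the smallest p among epithelial markers were Lrrn4, unmeasured in wild type and at -2.50 and -2.43 in the null pools, and the keratin genes Krt8 (-2.19, -2.02, 2.61 and 1.09) and Krt18 (0.65, -0.03, 4.38 and 2.68). Their limma adjusted p-values were 0.115, 0.235 and 0.435. Among stromal genes they were Col5a1, Postn and Pdgfra, and Col5a1 was also among the genes nearest to the mean of the 3 factors. Endothelial Robo4, Emcn and Sox18 had null means lower by log2 differences of -0.83, -0.78 and -0.62 (limma adjusted p = 0.543, 0.549 and 0.607). The endothelial genes Pecam1, Cdh5 and Kdr and the leukocyte genes Ptprc and Csf1r were measured in every pool, at levels from 1.74 to 5.26. Leukocyte Adgre1, Aif1 and Mrc1 differed by -0.38, -0.42 and -0.40, mesonephric Cdh16 and Gata3 by 0.36 and 0.26 (Cdh6 was unmeasured in null replicate 1), and erythroid Hba-a1, Epor and Hbb-y by -0.34, -0.15 and 0.16. The germ cell genes were Dazl (-0.45, -3.02, -2.15) and Ddx4 (0.19, -1.32, 0.66), both unmeasured in null replicate 2, and Dnd1 (-0.59, -1.55, 1.77 and -2.05).

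**Figure D5:**
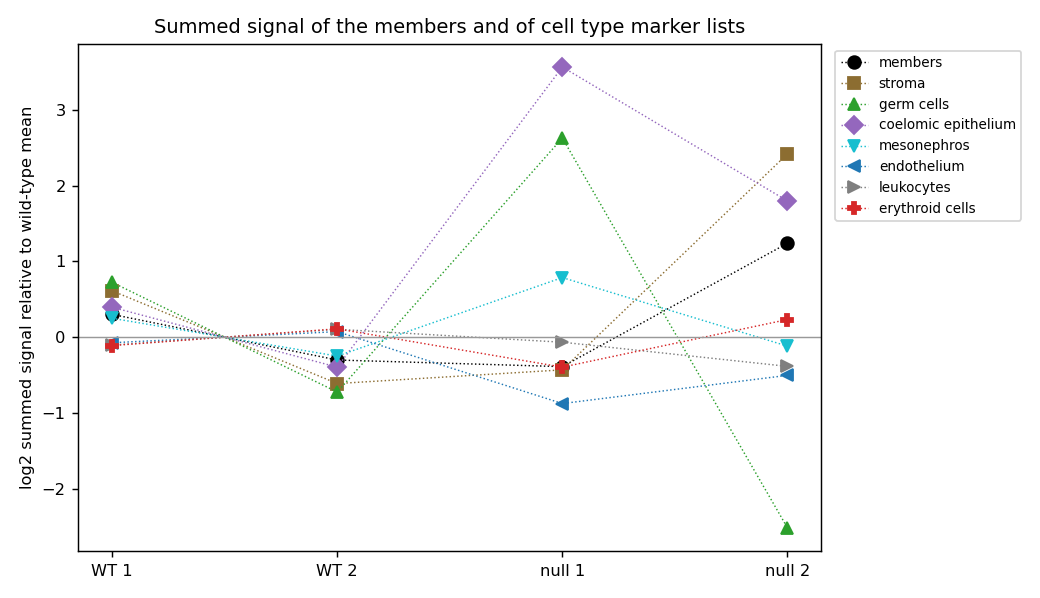
Summed scaled signal of the 8 members and of 7 cell type marker lists on each array, as log2 relative to the mean of the wild-type (WT) arrays (y axis); dotted lines only join the points of a list. The members and the stromal list are highest in null replicate 2, as is the erythroid list by a small margin. The germ cell and coelomic epithelial lists are highest in null replicate 1.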

How the data were processed

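RNA pools of sorted cells were compared, 2 wild-type and 2 HP1γ-null, grouped by the labels, which describe separate pools of embryos. Per the labels, each pool's cRNA was made from 4 ng of RNA and carried Cy3. Per the file headers, intensity values come from Agilent Feature Extraction 10.7.3.1, which took off local background and detrended each array. The authors' deposited value table holds the same linear intensity values in 3 digits, uncentred (medians 20.6, 22.6, 14.5 and 33.4). Flags of other kinds (well above background, outlier) are deposited per spot. All arrays shared 1 slide and 1 scan.

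Here log2 processed signals were taken relative to the 75th percentile of 43379 spots that are not controls, spots marked as outliers were left out, and spots of a probe were averaged. The 22440 probes that either genotype had above background on both its arrays were fitted with limma 3.58.1 in R 4.3.3, two-sided, with Benjamini-Hochberg adjustment over all of them and a threshold of 0.05. The fit had 2 residual degrees of freedom and a prior of 2.43, so the number of arrays limits all precision. A check of the fit used simulated data with independent noise of equal spread in both genotypes. These arrays differ from that: the median gap between replicates was 0.42 in the null pools and 0.16 in wild type. Files were read with Python 3.11.15. Gene names came from RefSeq (GRCm38.p6) by unversioned accession, for 26888 of 41174 probes. The brightest probe stands for a gene, and a member's other probes are given beside it.

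Members and lists were chosen with earlier results of these data known. Named are all members, the 3 genes of smallest unadjusted p in each of 3 pathway and 7 cell type lists, the defining markers of the latter, Cbx3, Prdm1 and the 3 or 5 genes nearest in pattern. Osr1, Nr2f1, Tbx18, Podxl, Gpm6a, Msln, Aldh1a2, Cdh1, Sry, Dmrt1, Foxl2, Cyp11a1, Star, Amh and Vnn1 and the genes nearest to Nr0b1 and Nr2f2 were added after their values were seen. The nearest genes to Gata4 were not sought because 3 of its 4 readings were not well above background. One gene of the regulator list is not reported here. Counts by direction and nearest genes were restricted, after seeing the data, to genes measured on all arrays, apart from Rasl11a. Alternatives were other scalings, normexp (on median spot signals), other filters, a replicate block, an intensity trend and leaving out each array.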

Additional observations from a re-analysis of the deposited data

How the results depend on the processing

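Limma called 2 probes over all tested, 0 of them higher in the null pools, and no member. The count was 146 with scaling to spiked-in control RNA (111 higher, 35 lower), under which the median over all probes was -0.61 instead of -0.06. It was 1 among probes well above background on all 4 arrays, 0 with no filter on dim probes (1474 at an unadjusted p under 0.05), 7 with an intensity trend (3 higher) and 13 with the replicate number as a block (8 higher). With each array left out it was 0, while 607 to 5643 probes had an unadjusted p under 0.05; the lone array of a genotype is then assumed to vary like the other group. Same-numbered arrays share only a number (correlation of their deviations 0.07), and with the block Wt1, Nr0b1 and Nr2f2 had limma adjusted p-values of 0.93, 0.16 and 0.999. For the members no alternative changed a call. Of 92 member values under an alternative, 88 were counted as unchanged. The rule was direction and call or, for genes not tested, a shift within 1 SD whatever the direction. Leaving out an array of a pair cannot shift a difference by more than that, so such values could not be counted otherwise. Among them, Tcf21 turned from 0.72 to -1.89 and Lhx9 from 0.08 to -1.29 without null replicate 2. Gata4 and Nr5a1 also turned in sign with an array left out, and Emx2 did not. Nr2f2 turned to -0.36 with spiked-in scaling, and over the arrays left out it ranged from -0.69 to 1.06. Gata4 moved from -0.25 to -0.80 with spiked-in scaling and to 0.02 with normexp. Under that scaling Wt1 differed by 0.46 and Nr0b1 by 1.54 (limma adjusted p = 0.54 and 0.20). Leaving out single arrays gave ranges of 0.14 to 1.87 for Wt1, 1.31 to 2.87 for Nr0b1, -1.89 to 3.34 for Tcf21, -1.29 to 1.46 for Lhx9, 0.15 to 1.91 for Emx2, -0.69 to 0.19 for Gata4 and -0.87 to 0.73 for Nr5a1, the last 5 resting partly on readings not above background. No member had over 1 tested probe, so averaging tested probes changed nothing. Readings of Gata4, Emx2, Lhx9 and Nr5a1 lie near the background, so a reading not above background does not show that the RNA was absent. Dim wild-type readings of Nr0b1 (18.3 units, replicate 2) and Tcf21 (21.5 units, replicate 1) also lie near the lowest measured there, 12.7 and 14.6 units.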
